A study of Mus musculus with 14 samples.

Results

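The genes described here are *Gfap*, *Aqp4*, *Slc1a2*, *Slc1a3*, *Aldoc*, *Aldh1l1*, *Fabp7*, *S100b* and *Gja1*, 9 genes used as markers of astrocytes and radial glia. They were found by gene symbol, through the RefSeq accessions of the RNA-seq tables, and all 9 are among the 23152 loci that each of the 6 tables lists. None of the 9 overlaps another locus of these tables.

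The study compared wild-type (WT) and *Taf9b* knock-out (KO) mouse cells and tissue, to ask what TAF9B, a TBP-associated factor of the core promoter machinery, does when embryonic stem (ES) cells become motor neurons. Poly-A RNA was sequenced from 11 samples, with 1 library per condition. The 8 culture libraries are ES cells and embryoid bodies (EBs) on days 2, 4 and 6 of differentiation with retinoic acid and the smoothened agonist SAG, each once from the JM8 clone, labelled wild type, and once from the Taf9b_BG10 clone, labelled TAF9B -/-. The 3 tissue libraries are newborn lumbar spinal column, labelled wild type and TAF9B -/-, and newborn spinal cord, labelled wild type. All have the C57BL/6 background. In the KO allele a *LacZ-Neo* cassette replaces the protein-coding exons of *Taf9b*, the KO line is 1 clone, and both ES cell lines were grown on feeder fibroblasts. The spinal column is the vertebral column with the cord inside it, taken from littermates, and the sources used here do not say how many animals make up a library. ChIP-seq peaks of TAF9B and RNA polymerase II (RNA POL2) come from another line, the HBG3 clone, wild type at *Taf9b* and carrying a GFP reporter under the *Mnx1* promoter, differentiated for 8 days.

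Radial glia line the ventricles of the embryonic nervous system. They divide to give neurons first and glia later, under the control of Notch signalling and of SOX and NFI transcription factors. Astrocytes arise from them late, around birth, and then clear glutamate from synapses, move water and potassium, and couple to each other through gap junctions. Some genes, such as *Slc1a3* and *Fabp7*, are on already in radial glia, whereas others, such as *Gfap* and *Aqp4* in the mouse, mark astrocytes that are maturing.

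*Taf9b* itself was examined first, because it is the targeted gene. It was at 0.537, 0.516, 1.96 and 1.37 FPKM (fragment numbers per length of transcript and per size of library) in the ES cell, day 2, day 4 and day 6 libraries labelled WT. In their partners labelled KO it was at 3.06, 4.08, 4.27 and 4.01 FPKM. In all 4 culture pairs the targeted gene was thus higher in the library labelled KO, and not lower. Culture libraries are therefore named by their labels throughout, and each direction rests on those labels. In spinal column it was at 6.65 FPKM in WT and 3.31 FPKM in KO. An FPKM value covers the whole transcript model, so reads outside the deleted coding exons count towards it, and whether they did was not tested. The total FPKM of *Taf9b* therefore cannot settle whether the culture labels are right. Between libraries the FPKM of all loci summed to between 410783 and 773896. The depth behind an FPKM value is unknown here, since the tables carry no read counts, and with 1 library per condition no difference below has a replicate check at its own day or tissue. Nor can the spread needed to say which neighbouring levels differ be had. In such bulk samples fewer cells of a type and less RNA per cell cannot be told apart.

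TAF9B peaks lay at the start of *Fabp7* and of *Aldoc*, and inside *Gfap* and *Slc1a3*. A peak counted as at a start where its midpoint was within 500 bp of a start of a coding transcript in the GENCODE annotation. By that measure 2 of the 9 genes had a TAF9B peak at a start. Both are among the 6 of them expressed in EBs at day 6, so the count to read is 2 of 6, where 30.6% of the 12227 genes expressed in EBs at day 6 (above 1 FPKM in at least 1 library) had one. Only *Fabp7* had an RNA POL2 peak at a start, 1 of 6 where 54.1% of those genes had one. The *Fabp7* gene (chr10:57504729-57508256, plus strand, build mm9) encodes a fatty acid binding protein of radial glia, also called brain lipid binding protein. Its TAF9B peak (chr10:57504514-57504711) had a MACS score of 64.68, below the median of 83.26 of the 10415 TAF9B peaks, and its midpoint was 74.5 bp before the first annotated start. It overlapped an RNA POL2 peak (chr10:57504496-57505056) with a score of 155.39, where the median of the 8620 RNA POL2 peaks was 133.87. *Aldoc* (chr11:78137700-78140262, plus strand) encodes aldolase C, a glycolytic enzyme of astrocytes. Its TAF9B peak (chr11:78136414-78136705, score 85.21) had its midpoint 89.5 bp after the first start in the GENCODE annotation, in an exon outside the coding sequence, and overlapped no RNA POL2 peak. From the later start of the RefSeq locus in the RNA-seq tables it was 1.14 kb upstream, so that *Aldoc* counts as having a peak at its start by the GENCODE start alone. The *Fabp7* peak was 116.5 bp upstream of its RefSeq start and counts by both.

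*Gfap* (chr11:102748650-102758514, minus strand) encodes the intermediate filament of astrocytes. Inside it lay TAF9B peaks with scores of 136.37 and 163.97, at 6.83 kb and 3.98 kb from the nearest *Gfap* start, the second of them in a coding exon (chr11:102754342-102754582). *Slc1a3* (chr15:8584124-8660807, minus strand) encodes the glutamate transporter GLAST. One TAF9B peak lay in an intron of it (chr15:8609722-8609948, score 94.82), 50.6 kb from the nearest start, and the others within 50 kb of the gene lay beyond its end. None of the peaks inside these genes overlapped an RNA POL2 peak. Up to 50 kb away, 4 of the 9 genes had a TAF9B peak (12 peaks) and 4 had an RNA POL2 peak (6 peaks). Among the 6 expressed at day 6 these were 3 and 2 genes, where 74% and 79.8% of the 12227 expressed genes had a peak that near. Several of these lay at the starts of neighbours, such as *Pigs* and *Spag5* near *Aldoc*, *Kif18b* near *Gfap* and *Prmt2* near *S100b*. For *Aqp4*, *Slc1a2*, *Aldh1l1* and *Gja1* neither list held a peak in that range. The ChIP line, the day and the markers' low levels in EBs all differ from the tissue libraries, so a missing peak says nothing about the gene there.

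**Figure D1:**
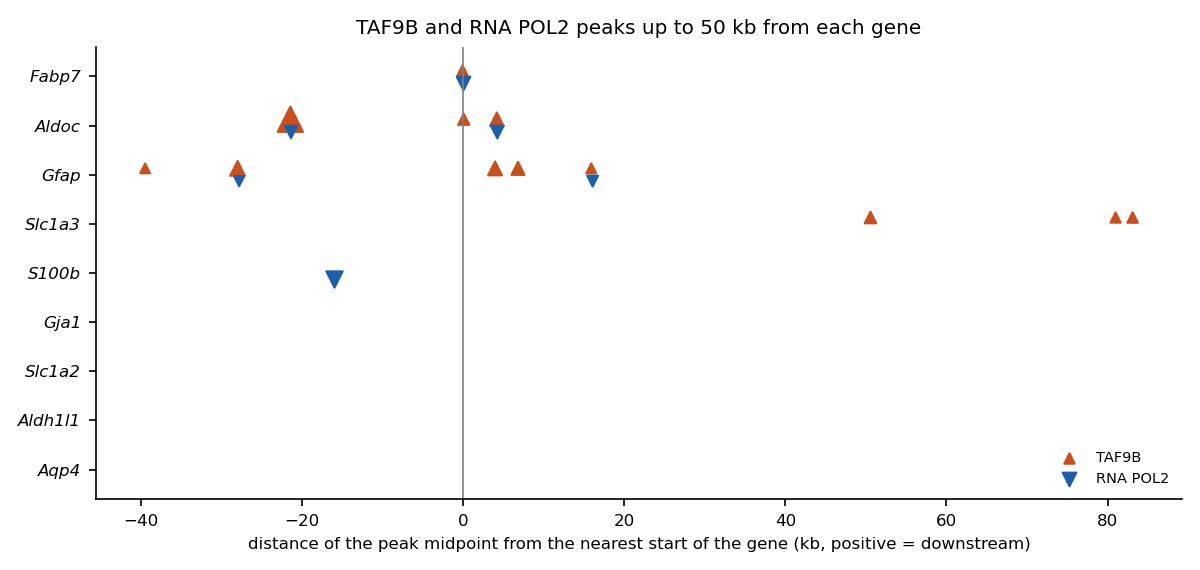
Distance of each TAF9B (triangle up) and RNA POL2 (triangle down) peak from the nearest start of each of the 9 genes, in kb, positive downstream, with the symbol's area growing with the MACS score. Peaks at 0 kb are those of *Fabp7* (both ChIPs) and *Aldoc* (TAF9B alone), and 4 rows are empty.

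The sequences at 3 of these peaks are shown because they are windows where the factor and these genes meet in the data. Each is 200 bases of build NCBIM37 (mm9), 5′ to 3′ on the strand of the gene. For *Fabp7* (chr10:57504487-57504686) and *Aldoc* (chr11:78136270-78136469) it is the stretch just before the first annotated start, of which the TAF9B peak covers 173 and 56 bases. For *Slc1a3* (chr15:8609736-8609935) it is the centre of the intronic peak. Capitals mark matches, on either strand, to 4 motifs of factors at work in neural progenitors: TGGGAA (RBPJ, the Notch effector), ACAAAG or ACAATG (SOX), TTGGCA (1 arm of the NFI palindrome) and CAGATG (an E-box bound by bHLH factors). No match overlaps another.
Fabp7: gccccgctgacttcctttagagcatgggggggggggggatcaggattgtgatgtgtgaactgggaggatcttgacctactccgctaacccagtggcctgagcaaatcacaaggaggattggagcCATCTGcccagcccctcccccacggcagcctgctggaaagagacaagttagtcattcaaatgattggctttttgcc
Aldoc: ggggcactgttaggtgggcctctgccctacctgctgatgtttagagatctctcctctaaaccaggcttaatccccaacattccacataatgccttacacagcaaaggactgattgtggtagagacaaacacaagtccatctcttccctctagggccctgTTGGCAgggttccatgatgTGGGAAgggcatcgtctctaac
Slc1a3: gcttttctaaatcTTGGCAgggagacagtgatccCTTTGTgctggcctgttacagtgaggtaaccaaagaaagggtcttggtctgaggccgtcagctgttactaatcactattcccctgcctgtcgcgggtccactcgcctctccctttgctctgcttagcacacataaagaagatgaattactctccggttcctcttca

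The *Fabp7* window held 1 E-box match and none of the other motifs. In *Aldoc* there was 1 RBPJ match and 1 NFI match, and in the *Slc1a3* intron 1 SOX match and 1 NFI match. Over the 200 bases before the first start of 22194 protein-coding genes, 16.8% held the RBPJ letters, 18.2% a SOX match, 8.99% the NFI letters and 9.97% the E-box. Over the central 200 bases of 10402 TAF9B peaks the shares were 18.7%, 19.6%, 8.63% and 13.2%. A letter match is a description of the window only. G and C made up 56% of the *Fabp7* window, 51% of that of *Aldoc* and 50% of that of *Slc1a3*, where the median was 55.5% before starts and 57% in TAF9B peaks.

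In spinal tissue all 9 genes were expressed above 1 FPKM, whereas between 4 and 6 of them were in the culture libraries. FPKM is scaled to transcript length, but a trend with length remained between the spinal column libraries (described below). The order of different genes within a library is therefore approximate. In spinal cord *Fabp7* was highest at 729 FPKM, followed by *Aldoc* at 519, *Slc1a3* at 120, *Gfap* at 117, *Gja1* at 98.6, *Aqp4* at 72.0, *Slc1a2* at 39.2, *Aldh1l1* at 35.1 and *S100b* at 14.2 FPKM. In spinal column *Fabp7* and *Aldoc* led as well. In every culture library *Gja1* was highest, with *Aldoc* second in all but the day 6 library labelled WT, where *Fabp7* was second.

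**Figure D2:**
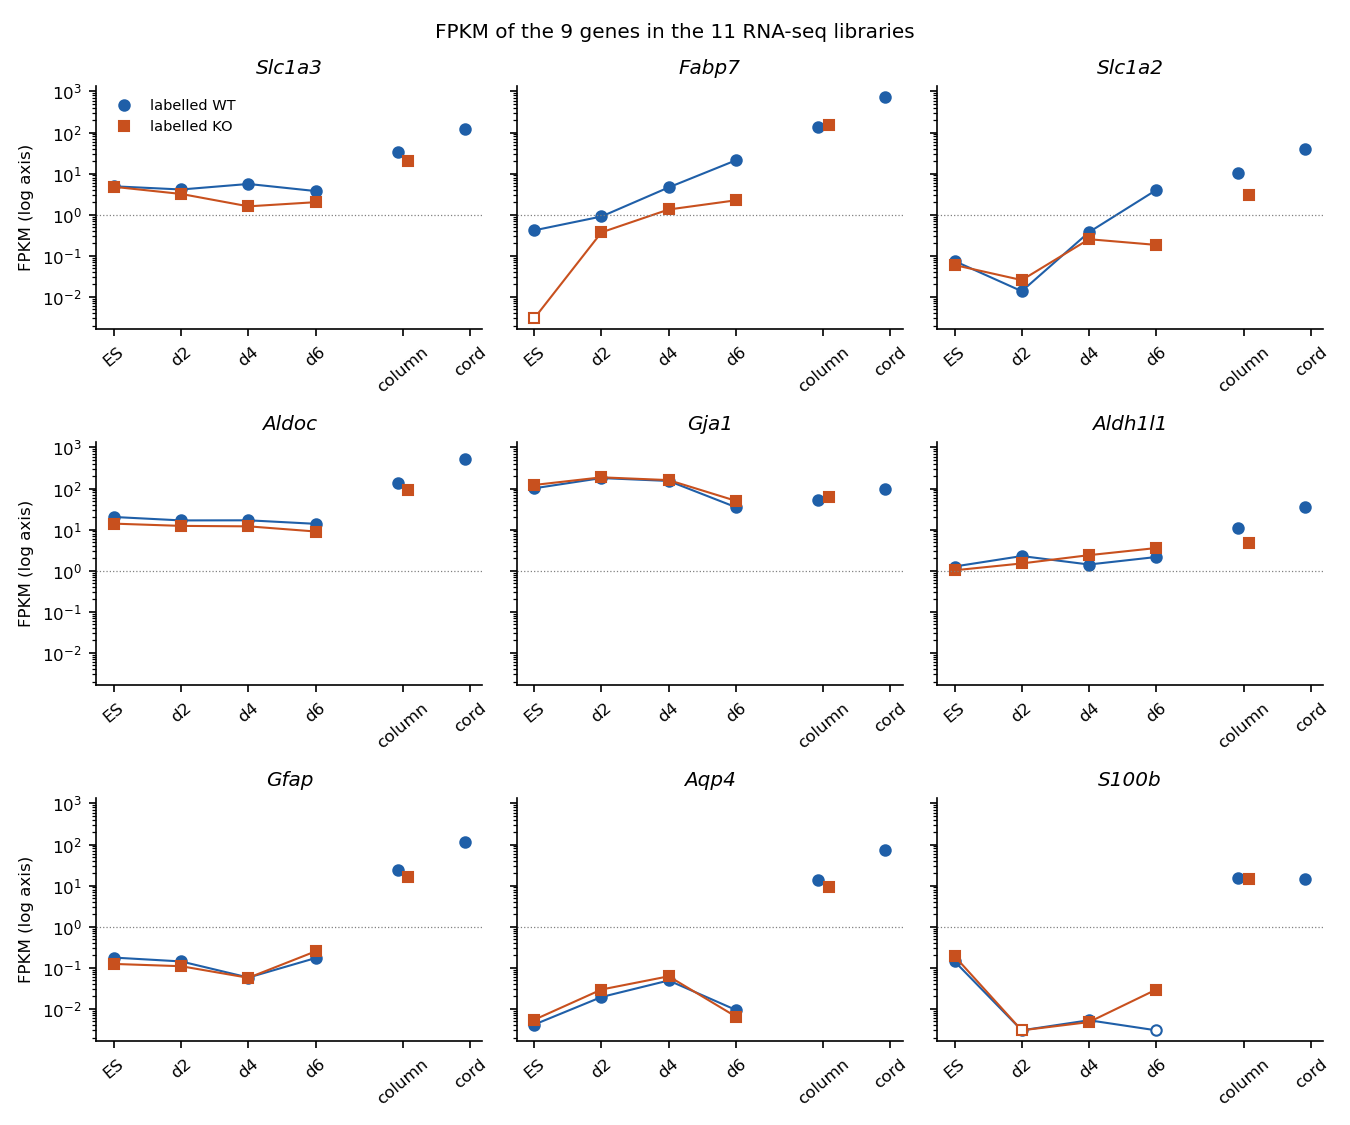
FPKM (log axis) of each gene in the 11 libraries, from ES cells (ES) through EB days 2, 4 and 6 (d2, d4, d6) to newborn spinal column and spinal cord, with circles for libraries labelled WT and squares for those labelled KO. Open symbols at the bottom stand for genes listed at 0, the dotted line for 1 FPKM, and *Gfap*, *Aqp4* and *S100b* pass that line only in tissue.

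Of the genes already on in radial glia, *Fabp7* was low in ES cells and *Slc1a3* was not. *Fabp7* was at 0.416, 0.903, 4.61 and 21.0 FPKM in ES cells and on days 2, 4 and 6 in the libraries labelled WT. It was thus higher at each later day, and 50.6-fold above its ES cell level on day 6. In the libraries labelled KO it was listed at 0 in ES cells and was at 0.371, 1.34 and 2.24 FPKM on days 2, 4 and 6. *Slc1a3* held between 3.76 and 5.59 FPKM in the 4 libraries labelled WT, with no such order. In those labelled KO it was at 4.76, 3.20, 1.60 and 2.02 FPKM.

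*Slc1a2*, which encodes GLT-1, the main glutamate transporter of mature astrocytes, was at 0.0744, 0.0137, 0.375 and 3.98 FPKM along the same course in the libraries labelled WT. The day 6 library labelled WT was the only culture library in which it passed 1 FPKM, at 53.5-fold its ES cell level. In the libraries labelled KO it was at 0.0595, 0.0256, 0.253 and 0.184 FPKM, and so stayed under 1 FPKM throughout.

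Both enzymes were above 1 FPKM in every culture library. *Aldoc* was between 13.8 and 20.3 FPKM in the libraries labelled WT and between 8.99 and 14.0 FPKM in those labelled KO, and these ranges overlap by little. *Aldh1l1*, the folate enzyme 10-formyltetrahydrofolate dehydrogenase and a broad astrocyte marker, was at 1.26, 2.27, 1.41 and 2.15 FPKM in the libraries labelled WT. In those labelled KO it was at 1.02, 1.50, 2.39 and 3.56 FPKM, each value above the one before and the last 3.48-fold above the first.

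*Gja1*, which encodes the gap junction protein connexin 43, also runs high outside glia, in ES cells and fibroblasts among others. It was at 101, 180, 153 and 35.1 FPKM in the libraries labelled WT and at 122, 187, 160 and 50.1 FPKM in those labelled KO, so both lines were lowest on day 6. Fibroblast and feeder cell genes were present in these libraries too. The 8 genes of that list, all of them expressed, summed to 643, 160, 24.5 and 69.4 FPKM in the libraries labelled WT and to 646, 150, 89.9 and 187 FPKM in those labelled KO, with none at 0. Their part in the *Gja1* level was not tested.

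*Gfap*, *Aqp4*, the water channel of astrocyte endfeet, and *S100b*, a calcium-binding protein of astrocytes and Schwann cells, did not reach 1 FPKM in any culture library. *Gfap* ran from 0.0570 to 0.251 FPKM there and *Aqp4* from 0.00414 to 0.0620 FPKM. *S100b* was listed at 0 in 3 of the 8 culture libraries and reached 0.192 FPKM at most. At these levels the 3 genes stay out of the counts by label in the cultures.

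Set against ES cells in the libraries labelled WT, day 6 EBs had 2 of the 6 expressed genes past 2-fold higher (*Fabp7* and *Slc1a2*) and 1 past 2-fold lower (*Gja1*, 2.88-fold). Over all 13008 expressed loci, 23.2% were past 2-fold higher and 15.1% past 2-fold lower. A gene or locus counted as expressed in a comparison when above 1 FPKM in at least 1 of its libraries. The ES cell and EB tables were normalized separately, so these ratios cross tables.

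In spinal cord over ES cells, which share a table, 8 of the 9 genes were past 2-fold higher and 0 past 2-fold lower, where 30.5% and 35.7% of all 14348 expressed loci were. Against an ES cell level close to 0, the log2 ratios of *Aqp4* (13.96), *Fabp7* (10.65), *Gfap* (9.24), *Slc1a2* (8.92) and *S100b* (6.51) depend on how little was counted there. *Aldh1l1* (4.67), *Aldoc* (4.55) and *Slc1a3* (4.49), which were above 1 FPKM in ES cells, had smaller ratios. *Gja1* was at 110 FPKM in ES cells in this table and 98.6 FPKM in spinal cord. Its log2 ratio of -0.16 turns to 0.10 once the ratios are centred on the median of all expressed loci, which is -0.26, so no direction is given for it. The same ES cell library is also the WT partner of the KO ES cells and the base of the day 6 comparison.

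Spinal column is spinal cord with bone, muscle, blood and nerve roots around it, and the glial genes were lower in it than in the cord alone. In WT, 7 of the 9 genes were past 2-fold higher in spinal cord than in spinal column, from *Fabp7* at 5.35-fold, *Aqp4* at 5.20-fold and *Gfap* at 4.96-fold to *Aldoc* at 3.87-fold, *Slc1a2* at 3.71-fold, *Slc1a3* at 3.53-fold and *Aldh1l1* at 3.25-fold. None was past 2-fold lower. Of all 14110 expressed loci 16% were past 2-fold higher and 17.3% past 2-fold lower, with a median log2 ratio of 0.07 across these separately normalized tables. Whether these ratios follow transcript length was not tested. *Gja1*, at 53.4 FPKM in the column and 98.6 FPKM in the cord, differed by 1.85-fold. *S100b* stood apart from the other genes, at 15.3 FPKM in the column and 14.2 FPKM in the cord. The 9 Schwann cell genes listed summed to 587 FPKM in the column and 826 FPKM in the cord, and the 10 genes of cartilage and bone that were measured to 1773 and 83.7 FPKM, with none of either at 0.

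Between the libraries labelled KO and WT the glial genes differed little in ES cells and on day 2. In ES cells 0 of the 4 expressed genes were past 2-fold in either direction, where 0.541% of all 12019 expressed loci were higher and 0.591% lower. On day 2 it was again 0 of 4, beside 1.19% higher and 1.4% lower of 11951 loci. *Aldoc* had log2 ratios of -0.54 and -0.44 in these pairs and *Gja1* of 0.27 and 0.06.

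On day 4 *Slc1a3* and *Fabp7* were past 2-fold lower by the KO label. *Slc1a3*, at 5.59 FPKM by the WT label and 1.60 FPKM by the KO label, was 3.51-fold lower in the latter. *Fabp7* was at 4.61 and 1.34 FPKM, 3.45-fold lower. These were 2 of 5 expressed genes past 2-fold lower, beside 4.43% of all 12543 expressed loci, and 0 were past 2-fold higher, beside 12.1% of them. Of the other lists, 6 of 14 expressed regulators were past 2-fold lower and 1 higher, and 1 of 13 genes of radial glia structure and matrix was past 2-fold in each direction. Of 19 expressed genes for astrocyte metabolism, transport and secretion 7 were past 2-fold higher and 0 lower, with a median log2 ratio of 0.26. All 7 genes of pluripotent cells were past 2-fold higher by the KO label, with sums of 108 and 807 FPKM, as were all 6 of simple epithelium, with 104 and 511 FPKM, and all 8 of fibroblasts and feeder cells, with none at 0. Their part in the day 4 values was not tested.

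On day 6 the lower genes were *Slc1a2* and *Fabp7*. *Slc1a2* had 3.98 FPKM by the WT label and 0.184 FPKM by the KO label, a log2 ratio of -4.44 that shrinks to -2.07 when 1 FPKM is added to both values. *Fabp7* was at 21.0 and 2.24 FPKM, 9.40-fold lower. That makes 2 of 6 expressed genes past 2-fold lower, where 9.93% of all 12985 expressed loci were, and 0 past 2-fold higher, where 10.5% were. *Slc1a3* was also lower in the library labelled KO, by 1.86-fold, as was *Aldoc*, by 1.54-fold. *Aldh1l1* and *Gja1* were higher in it, by 1.65-fold and 1.43-fold.

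**Figure D3:**
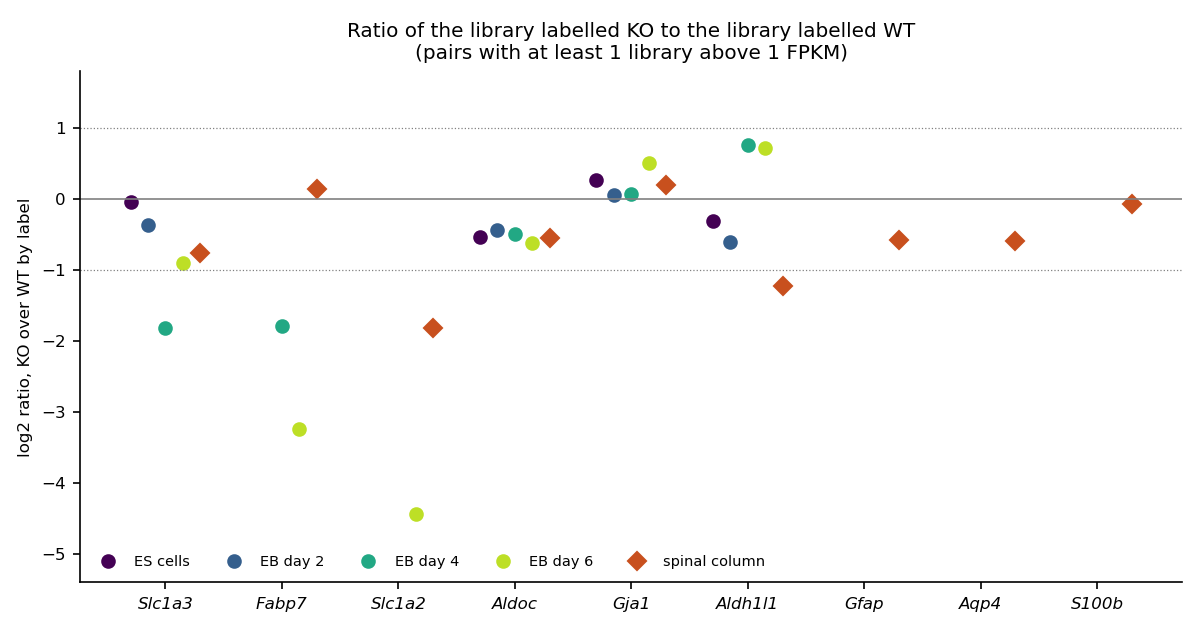
Log2 ratio of the library labelled KO to the library labelled WT for each gene in 4 culture pairs (circles) and spinal column (diamonds), drawn where at least 1 library of the pair was above 1 FPKM and neither was 0. Dotted lines mark 2-fold, and the day 6 values of *Slc1a2* (-4.44) and *Fabp7* (-3.23) lie farthest from 0.

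Genes of other cell types moved with the day 6 difference. All 12 neuronal genes listed were past 2-fold lower by the KO label (median log2 ratio -4.09), from *Stmn2* (-1.51), a regulator of microtubules in growing axons, to *Elavl4* (-5.54), a neuronal RNA-binding protein. They summed to 1271 FPKM in the library labelled WT and 147 FPKM in that labelled KO, with none at 0. The 7 genes of pluripotent cells summed to 1386 and 4081 FPKM, with 6 past 2-fold higher, and the 6 of simple epithelium to 210 and 1336 FPKM, with all 6 past 2-fold higher, again with none at 0. The part of these cells in the levels of *Slc1a2* and *Fabp7* was not tested.

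The other lists of radial glia and astrocyte genes had medians on both sides of 0 on day 6, beside -0.76 for the 6 expressed genes. Of the 15 expressed regulators of gliogenesis and radial glia, 0 were past 2-fold higher and 7 past 2-fold lower, with a median log2 ratio of -0.22. They ran from *Rbpj*, which encodes the DNA-binding partner of Notch (33.5 and 59.7 FPKM in the libraries labelled WT and KO), to *Hes5*, a Notch target that holds progenitors back from differentiating (24.4 and 0.533 FPKM). *Hes5* was at 71.0 and 3.61 FPKM on day 4. Of the 12 expressed genes for the structure and matrix of radial glia, 4 were past 2-fold higher and 4 past 2-fold lower, with a median of -0.79, from *Tnc*, the matrix protein tenascin C (1.34 and 5.64 FPKM), to *Fgfr3*, a fibroblast growth factor receptor (4.52 and 0.750 FPKM). Of the 17 expressed genes for astrocyte metabolism, transport and secretion, 7 were past 2-fold higher and 1 past 2-fold lower, with a median of 0.63. Their ends were *Pla2g7*, a secreted phospholipase (5.70 and 21.1 FPKM), and *Ncan*, the proteoglycan neurocan (3.85 and 0.661 FPKM). The median over all expressed loci on day 6 was -0.0031.

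In newborn spinal column the ratios ran differently. The KO library also stood apart in holding keratins of the epidermis (*Krt10* at 352 FPKM) that were low in WT (*Krt10* at 3.60 FPKM), and the part of this in the glial values was not tested. *Slc1a2* was at 10.6 FPKM in WT and 2.99 FPKM in KO, 3.54-fold lower, and *Aldh1l1* at 10.8 and 4.62 FPKM, 2.33-fold lower. These were 2 of the 9 genes past 2-fold lower, where 8.51% of all 14194 expressed loci were, and 0 were past 2-fold higher, where 9.07% were. *Slc1a3* was at 34.0 and 20.0 FPKM, *Gfap* at 23.5 and 15.8 FPKM, *Aqp4* at 13.8 and 9.18 FPKM and *Aldoc* at 134 and 91.4 FPKM, between 1.47-fold and 1.70-fold lower in KO. The remaining genes were close to even, with *Fabp7* at 136 and 150 FPKM, *S100b* at 15.3 and 14.5 FPKM and *Gja1* at 53.4 and 61.1 FPKM. The median log2 ratio of the 9 genes was -0.58, beside 0.06 for all expressed loci.

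The KO over WT ratio in spinal column followed transcript length across all genes. The median log2 ratio was 0.88 for the 836 expressed transcripts of up to 1000 bases, 0.49 for 2821 of up to 2000 bases, 0.08 for 5486 of up to 4000 bases, -0.38 for 3573 of up to 8000 bases and -0.96 for 546 longer ones. The 9 genes span this range, from *Fabp7* with 880 bases to *Slc1a2* with 11595 bases. Each was therefore set against the 400 expressed transcripts nearest to it in length. The origin of this trend was not tested.

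Against transcripts of like length the genes drew together. *Fabp7*, even between the libraries by its own ratio of 0.14, lay 0.64 below the median of its neighbours in length, which was 0.78. *S100b*, with a ratio of -0.07, lay 0.55 below its own. *Slc1a2*, whose ratio of -1.82 was the lowest of the 9, stood beside neighbours of 8502 to 15647 bases with a median of -0.99 and lay 0.83 below them. *Aldh1l1* lay farthest under its neighbours, at a difference in log2 ratio of -1.07. *Gfap* was at -0.69, *Aldoc* at -0.67 and *Slc1a3* at -0.61. The length used for *Aldoc*, 2786 bases, exceeds its whole RefSeq locus of 2563 bases. It is therefore not the length of the transcript measured, and the value for *Aldoc* is uncertain. *Aqp4*, at -0.26, was between the quartiles of its neighbours, as was *Gja1*, at 0.16. The other 7 genes were below the lower quartile of theirs and 0 above the upper quartile. The median of the 9 differences was -0.64, and 8 of them were below 0.

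**Figure D4:**
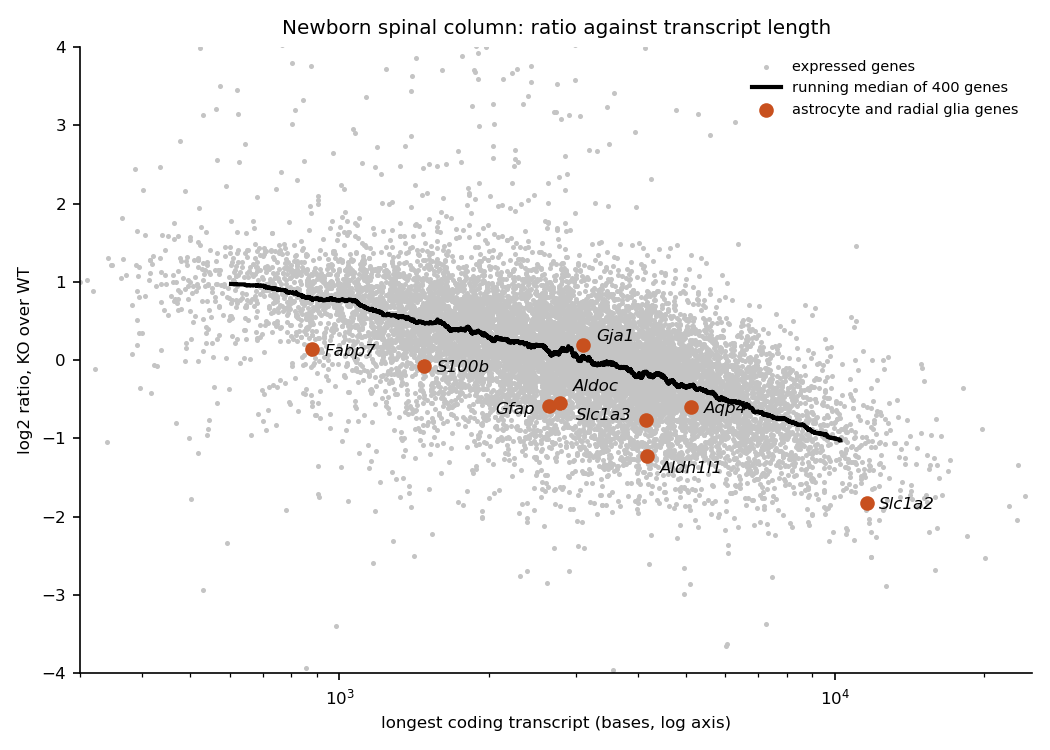
Log2 ratio of KO over WT in spinal column against the length of the longest coding transcript (bases, log axis) for expressed genes (grey), with the running median of 400 genes (line) and the 9 genes (orange). Genes beyond 4 on either side of 0 are outside the frame, the line falls with length, and 8 of the 9 genes lie under it.

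Like-length differences of the other lists set these values in place. For the 28 measured genes for astrocyte metabolism, transport and secretion the median difference was -0.77, with 24 below 0. The medians were -0.28 for 16 regulators and -0.15 for 14 genes of radial glia structure and matrix. Genes of other neural cells were also below 0, at a median of -1.06 for 11 neuronal genes, all below 0, at -0.72 for 9 oligodendrocyte genes and at -0.59 for 9 Schwann cell genes. The 10 genes of cartilage and bone were at -0.12, the 6 of skeletal muscle at -0.14, the 8 of fibroblasts at 0.06, the 5 of blood at 0.55 and the 6 of simple epithelium at 1.38, the farthest from 0 of all lists. In summed level the 11 neuronal genes measured went from 1373 FPKM in WT to 754 FPKM in KO, and 7 of them were past 2-fold lower. The 6 blood genes measured went from 427 to 894 FPKM, with *Elane* listed at 0 in WT. Most of both sums was *S100a8*, at 406 and 855 FPKM, whereas *Slc4a1* was at 3.08 and 2.96 FPKM. The 6 genes of simple epithelium went from 10.6 to 27.5 FPKM, with 4 past 2-fold higher and none at 0. Keratins of the epidermis, looked up after their values were seen, differed by more, with *Krt1* at 1.04 FPKM in WT and 238 FPKM in KO, *Krt10* at 3.60 and 352 FPKM and *Krt14* at 0.272 and 77.3 FPKM. The part of a different make-up of these tissue pieces in the values of the 9 genes was not tested.

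**Figure D5:**
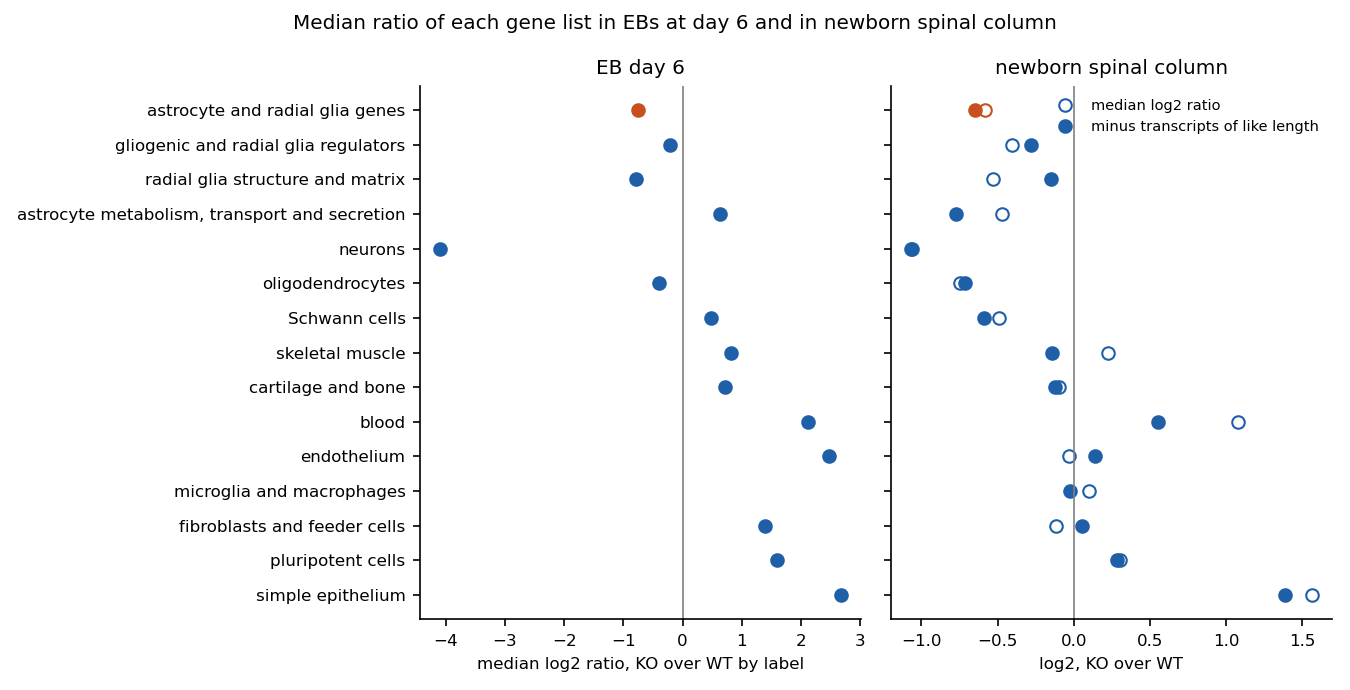
Median log2 ratio of KO over WT for each gene list, in EBs at day 6 (left, by label) and in spinal column (right), where open circles are the ratios and filled circles the differences from transcripts of like length. The 9 genes (orange) lie at -0.76 and at -0.64, and neurons lie lowest in both panels; the blood value on the left rests on 1 expressed gene.

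Shares of the glial lists past 2-fold in spinal column are to be read beside the 9.07% of all expressed loci that were higher and the 8.51% that were lower. Of 17 expressed regulators 1 was past 2-fold higher and 2 past 2-fold lower, from *Lhx2*, a LIM homeobox factor (0.495 FPKM in WT and 2.86 FPKM in KO), to *Zbtb20*, a zinc finger factor of astrocyte development (1.26 and 0.446 FPKM). Of 14 structure and matrix genes 0 were past 2-fold higher and 3 past 2-fold lower, from *Hopx*, a homeodomain protein (38.5 and 73.6 FPKM), to *Ptprz1*, a receptor phosphatase of radial glia (11.3 and 3.77 FPKM). Among the 28 genes for metabolism, transport and secretion, 0 were past 2-fold higher and 4 past 2-fold lower. They ran from *F3*, the tissue factor of blood clotting (3.32 and 5.50 FPKM), to *Ncan* (36.4 and 10.8 FPKM). In the neuronal list the ends were *Stmn2* (236 and 170 FPKM) and *Nefm*, a neurofilament subunit (110 and 30.0 FPKM).

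By the labels, *Slc1a2* was lower in KO on day 6 and in spinal column, *Aldoc* and *Slc1a3* had ratios below 0 in each of the 5 pairs (*Slc1a3* at -0.04 in ES cells), and *Fabp7* and *Aldh1l1* were not alike between culture and tissue. *Aldh1l1* had log2 ratios of -0.31, -0.60, 0.76 and 0.73 in ES cells and on days 2, 4 and 6, and of -1.22 in spinal column. *Fabp7*, 1 of the genes with a TAF9B peak at its start, had ratios of -1.79 and -3.23 on days 4 and 6 and of 0.14 in spinal column. *Aldoc*, the other, ranged from -0.62 to -0.44 over all 5 pairs. Were the culture labels exchanged, the sign of every culture ratio would turn, so that *Slc1a2* would be 21.6-fold higher in KO on day 6 and *Aldh1l1* lower in KO on days 4 and 6. The day 6 medians by label of the neuronal list (-4.09) and of the pluripotent list (1.59) would turn as well. An exchange was not tested, and the total FPKM of *Taf9b* cannot decide it. These are lone libraries, and the differences between pairs were not tested.

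The profiles of the genes over the 11 libraries were compared by Pearson's r of log2(FPKM + 1), as a description. All the libraries share the split between culture and tissue, and for a gene near 0 in culture that split makes up most of r. *Gfap* and *Aqp4* had an r of 0.999 over 11 libraries and of -0.84 over the 8 culture libraries, where both were near 0. *Slc1a2* and *Fabp7* had an r of 0.947 over all and of 0.915 over the culture libraries, the highest of any pair of the 9 genes there. That culture value rests largely on the day 6 library labelled WT. There alone in culture *Slc1a2* passed 1 FPKM, and *Fabp7* had its highest culture level. *Slc1a3* was closest to *Aldoc* (0.988), and *Gja1* had a negative r with each of the other 8 genes, from -0.51 with *Fabp7* to -0.22 with *Aldoc*.

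Of 12355 genes that reached 5 FPKM in some library, those most like *Slc1a2* were *Marchf4* (0.996 over all libraries and 0.978 in culture) and *9330159F19Rik* (0.993 and 0.983). These culture values too rest largely on the day 6 library labelled WT. Among those nearest to *Fabp7* was *Slc22a17* (0.992 and 0.962). After *Aldoc*, *Slc1a3* was nearest to *Camk2g* (0.986 and 0.711). *Aldoc* had *Nlgn3* (0.993 and 0.826) and *Camk2g* (0.990 and 0.642), and *Aldh1l1* had *Tunar* (0.988 and 0.848) and *Osbp2* (0.987 and 0.781). *S100b* was nearest to *Ctss* (0.999 and 0.934), which encodes the lysosomal protease cathepsin S, but *S100b* was near 0 throughout culture. *Gja1* had its nearest in *5430405H02Rik* (0.939 and 0.959) and *Ccdc38* (0.939 and 0.978). *Gfap* had *Omg* and *Olfm3* and *Aqp4* had *Omg* and *Marchf1*, each at 0.999 or above over all libraries but between -0.80 and 0.26 in culture.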

How the data were processed

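The authors sequenced poly-A libraries, mapped reads to RefSeq genes with TopHat and made FPKM values with Cuffdiff on mm9, per the paper's methods and the submitters' processing notes. ChIP-seq reads were mapped to mm9 with Bowtie, and the authors deposited a MACS score for each peak. Tool versions, and whether peaks were called against the IgG sample (not analysed here), are not given in the sources used here. The authors' Cuffdiff log2 fold changes, test statistics and p-values in these tables were not used.

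Loci flagged HIDATA or FAIL by Cuffdiff were left out, between 13 and 71 per table, none of them among the 9 genes. In spinal column they include 5 list genes (*Dcx*, *Acta1*, *Ckm*, *Myh8* and *Mylpf*). Log2 ratios of the deposited FPKM values have no pseudocount, and a gene listed at 0 has none. With 1 library per condition no comparison was tested by itself, and limma 3.58.1 was run across the culture days alone. Transcript length is that of the longest coding transcript in GENCODE vM1 on NCBIM37, found for 13262 expressed genes. Of 21393 loci named in that annotation 99.1% overlap the gene of the same name.

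The members and lists were chosen with earlier results of these data known. The genes named are the 9 members, *Taf9b*, for each member its 2 nearest genes by profile, and in other lists the largest rise and fall among expressed genes in EBs at day 6 and in spinal column. *Elane*, *S100a8*, *Slc4a1*, the keratins and the neighbours of peaks were named after their values were seen. For *Fabp7* and *S100b* 1 of the nearest genes is not reported here. Alternatives were a pseudocount, other minimum levels, centring, other length references, other peak windows and scores, and the other table of the ES cell library. On simulated data the counting recovered all 200 changed loci and made 0 other calls, in each of the 6 comparisons. That run checks the counting step alone. It gives no rate of missed or false calls for the real data, since the spread between replicate libraries is unknown. The work was done in Python 3.11.15 (pandas 2.3.3, numpy 2.4.6, statsmodels 0.14.6 for lowess, matplotlib 3.10.9).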

Additional observations from a re-analysis of the deposited data

Results flagged for a closer look

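*Aldh1l1* had KO over WT ratios of opposite sign in different sample pairs, from 1 library per condition, so the differences were not tested. Its log2 ratio on day 4 was 1.06 above that in ES cells and 1.35 above that on day 2, and on day 6 it was 1.03 and 1.32 above them. In spinal column its log2 ratio lay below those of day 4 and day 6, with differences of -1.98 and -1.95.

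*Fabp7* was lower in the libraries labelled KO on days 4 and 6 and slightly higher in KO spinal column. The log2 ratio in spinal column was 1.93 above that on day 4 and 3.37 above that on day 6, and these differences were not tested either. Against transcripts of like length *Fabp7* was below 0 in spinal column too, by 0.64, so its sign there depends on the reference.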

How the results depend on the processing

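Each comparison holds 1 pair of libraries, so none could be tested as pairs by itself. A fit of the 8 culture libraries with the day as a block, added after seeing the data, takes the label to act alike on all 4 days (limma, log2(FPKM + 1), 3 residual degrees of freedom). The days stand in for replicates and come from the same pair of clones. Its p-values therefore measure how the label difference varies between days, not between replicate libraries or clones. Of 13573 genes the fit called 0 at an adjusted p under 0.05, with 1584 at an unadjusted p under 0.05. Of the 6 genes tested, *Aldoc* had a label difference of -0.49 (limma adjusted p = 0.411) and *Fabp7* of -1.25 (limma adjusted p = 0.411), both lower in 4 of 4 pairs, and the limma adjusted p of the other 4 ran from 0.411 to 0.759. Of 82 summary values under the alternatives, 75 stayed within 1.5 times the count or the tolerance, and so did 165 of 172 values for single genes. With no minimum level, 1 of the 9 genes was past 2-fold lower in ES cells and 1 on day 2, both *Fabp7*, and 1 was past 2-fold higher on day 6, *S100b*, which has no ratio since it is listed at 0 in the library labelled WT and is at 0.0295 FPKM in its partner. With a minimum of 5 FPKM, 1 gene was past 2-fold lower on day 4 and 1 on day 6. With 1 FPKM added, the median log2 ratio of spinal cord over ES cells was 4.49 in place of 6.51, and those of *Gfap*, *Aqp4*, *Slc1a2*, *Aldh1l1*, *Fabp7* and *S100b* were lower, as was that of *Slc1a2* on day 6. With peaks above the median score alone, 1 gene in place of 2 had a TAF9B peak at its start. Each value rests on a lone library of unknown depth, so values near 0 carry little weight. No replicate could be left out.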
